A study of Caenorhabditis elegans with 2 samples.

Results

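The CEM neurons are sensory neurons of the Caenorhabditis elegans head that live in males and die in hermaphrodite embryos, and 9 genes known to act in that choice are described here. They were chosen by name among 19973 protein-coding genes: ceh-30, ceh-31, tra-1, unc-86, unc-37, egl-1, ced-9, ced-4 and ced-3. For each, every peak summit in the gene or within 5000 bp of either end was collected from the authors' peak lists, which map an eGFP-tagged CEH-30 protein by chromatin immunoprecipitation and sequencing (ChIP-seq). The chromatin came from whole late embryos of strain OP120, genotype unc-119(ed3) III; wgIs120, a transgenic line carrying tagged ceh-30. The embryos were of mixed sex and were pooled, so CEM cells were few among all cells and the sexes cannot be told apart. The share of males among the embryos is not known here, so no signal can be assigned to living male CEM cells. Both biological replicates carry the transgene and form 1 group, an untagged or control library was not analysed here, and the label names ceh-30 as the antibody target.

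In background, the death machinery is a chain. EGL-1, a BH3-only protein, binds CED-9, the Bcl-2 family protein that holds CED-4 in check, and freed CED-4, the Apaf-1 counterpart, activates the caspase CED-3. CEH-30 is a BarH-type homeodomain repressor that keeps male CEM neurons alive and is known to act with UNC-37, the Groucho corepressor. The POU homeodomain protein UNC-86 promotes ceh-30 expression in these cells, and TRA-1, the GLI-type zinc finger protein at the end of the sex determination pathway, shuts ceh-30 off in hermaphrodites. CEH-31 is the BarH paralog encoded beside ceh-30.

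The bases around the strongest reproducible summit of each of 5 of the genes show what lay under these peaks. Each run reaches 50 bases to both sides of a pooled summit that overlapped a peak of both replicates, and is written 5′ to 3′ on the strand of the named gene, from the RefSeq WBcel235 genome. Capitals mark words searched for on either strand: the homeodomain core TAAT, its longer forms TAATTG as well as TAATTA, the related word TAAACG, the POU octamer ATGCAAAT, and also GACGCA with its companion GCGCCA, which were known from an earlier look at these peaks to be frequent at its strongest summits.
ced-9: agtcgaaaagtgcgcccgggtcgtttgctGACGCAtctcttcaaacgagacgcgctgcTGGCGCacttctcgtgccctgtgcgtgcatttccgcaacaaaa
ced-4: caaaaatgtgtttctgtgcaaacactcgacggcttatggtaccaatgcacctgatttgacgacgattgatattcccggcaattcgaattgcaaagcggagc
tra-1: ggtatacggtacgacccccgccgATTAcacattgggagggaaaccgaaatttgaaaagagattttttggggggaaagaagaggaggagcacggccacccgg
ced-3: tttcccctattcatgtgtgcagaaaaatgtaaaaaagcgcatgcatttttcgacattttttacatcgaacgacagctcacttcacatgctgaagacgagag
egl-1: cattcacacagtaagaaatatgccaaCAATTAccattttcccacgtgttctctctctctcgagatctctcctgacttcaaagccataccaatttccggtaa
The ced-9 run spans III:10334103-10334203 on the plus strand and is 57.4% G and C. The ced-4 run spans III:4850303-4850403 on the plus strand, with 45.5% G and C, and holds none of the words. The tra-1 run, at III:11188362-11188462 on the minus strand, and the ced-3 run, at IV:13202552-13202652 on the minus strand, had 53.5% and 39.6%. The egl-1 run, at V:14426278-14426378 on the minus strand, had 41.6% and is the only one of the 5 with a full TAATTG, read on the opposite strand. At tra-1 and egl-1 the nearest replicate 1 summits were 114 and 143 bp from the pooled ones. The windows of both tra-1 replicate summits and of the egl-1 replicate 1 summit held none of the words, while the egl-1 replicate 2 window held TAATTG.

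Further sequences concern TRA-1, which is known to act through a binding site in an intron of ceh-30 and through one downstream of egl-1. The 9-letter word TGGGTGGTC was not found within 10000 bp of any of the 9 genes. It stands at 417 places in the nuclear genome, and 8.06% of all protein-coding genes have it within that distance. The shorter GGGTGGTC, tried after the longer word gave no match and contained in it, was found within 10000 bp of 4 of the genes (ceh-30, ceh-31, tra-1 and egl-1), against 19.5% of all protein-coding genes. The neighbours ceh-30 and ceh-31 share the same 2 matches, so these genes are not separate cases. The stretch searched grows with gene length, and tra-1, at 24312 bp, is the longest of the 9. Each match within 10000 bp of ceh-30 or egl-1 is shown with 10 bases on each side, the word in capitals, on the plus strand of its chromosome.
ceh-30 intron: gttatcgccgGGGTGGTCtcctgctctt
upstream of ceh-31: taattccttcGGGTGGTCtctaatcttg
downstream of egl-1: actcctaaccGGGTGGTCcataaaattc
The ceh-30 word is at X:3064813-3064820, and the nearest pooled summit was 275 bp away, with a signal of 14.1. The second word near ceh-30, at X:3072529-3072536, is upstream of ceh-31, 2107 bp from that gene, and 4643 bp from the nearest pooled summit. The egl-1 word is at V:14425845-14425852, 5456 bp beyond the 3′ end of the gene, and the nearest pooled summit was 479 bp away, with a signal of 13.7. None of the 3 words lay within 50 bp of a pooled summit, and whether these words are the known TRA-1 sites was not tested.

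The authors deposited 545 optimal peaks, selected by the irreproducible discovery rate (IDR) procedure, and longer relaxed lists of 30000 peaks for the pooled replicates, 30000 for replicate 1 and 17926 for replicate 2. Each peak carries the authors' signal value, a peak height whose scale differs between lists, so replicate values are given side by side with their ranks and not averaged. Read depth is unknown, since the lists hold no read counts, and a gene with no listed summit may still have had signal under the limit of the list. Pooled signals ran upward from 10.1 with a median of 13.5, and the optimal list from 38.9 to 792 with a median of 48.5. Relaxed lists hold background by design, so a relaxed summit is not by itself a binding site.

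Optimal peaks stood at unc-37 and next to ced-9, and the other 7 genes had only relaxed summits. Among the 545 optimal peaks these ranked 450 and 353. Their signals of 41.3 and 45.1 were both below the optimal median of 48.5. An optimal summit lay in or within 5000 bp of 2 of the 9 genes, against 8.07% of all protein-coding genes. In the promoter window, taken as 1000 bp upstream to 500 bp downstream of the 5′ end, 1 gene of 9 held an optimal summit, unc-37, against 2.40% of all. Windows grow with gene length, and 34.3 kb were searched at tra-1 against 11.1 kb at egl-1. Per length, the windows held 1.54 optimal summits per 100 kb against 0.544 over the genome, a figure that rests on 2 peaks. For the other genes, the distance from the 5′ end to the nearest optimal summit was 17.1 kb at egl-1, 26.7 kb at unc-86, 27.4 kb at ceh-30, 29.6 kb at ceh-31, 47.6 kb at ced-4, 122 kb at tra-1 and 813 kb at ced-3. The median of the 9 genes was 27.4 kb, against 69.4 kb over all protein-coding genes.

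**Figure D1:**
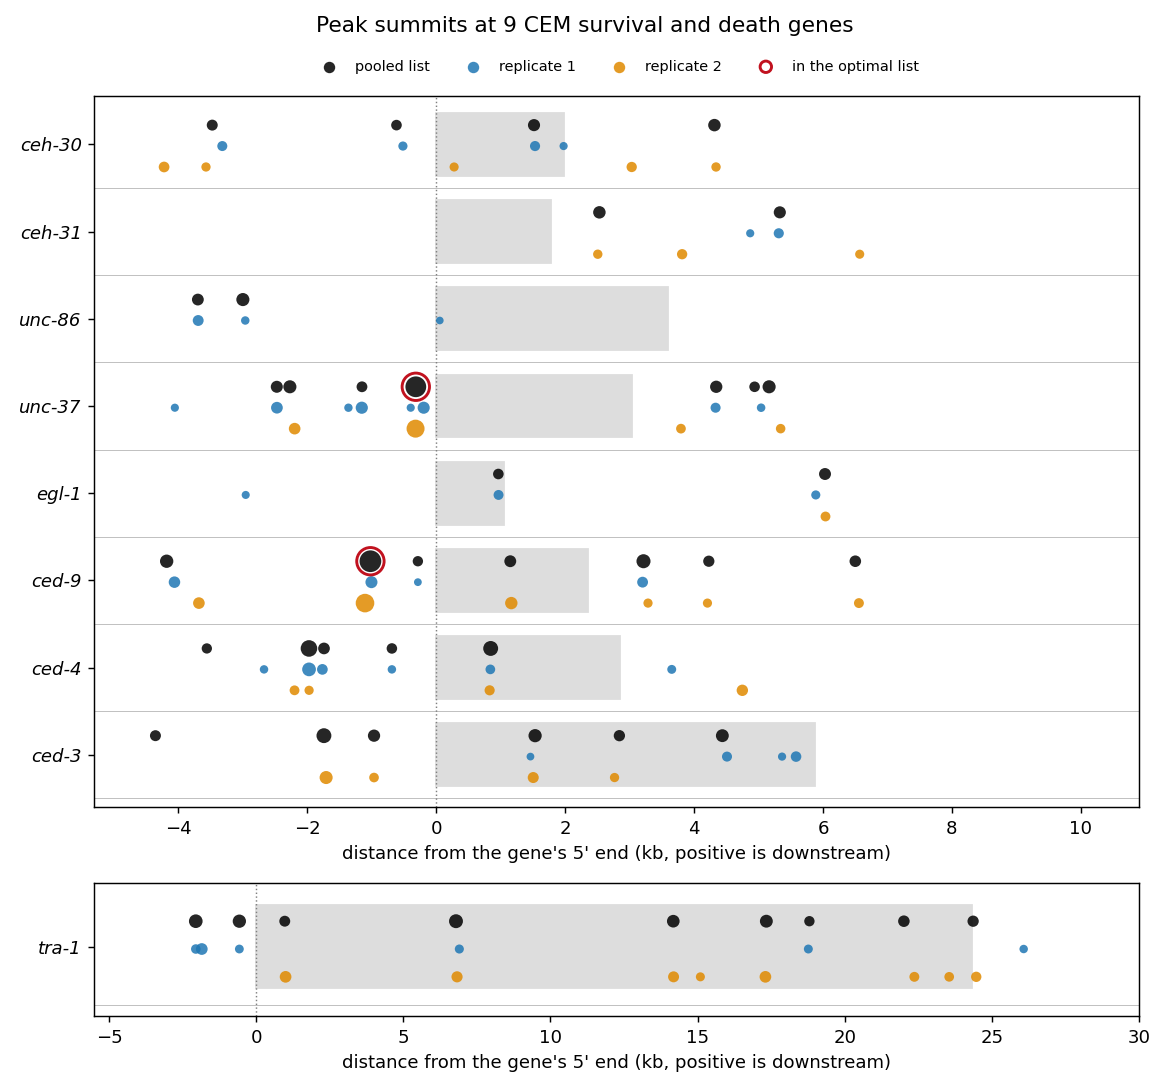
Summits in and within 5000 bp of each of the 9 genes, placed by distance from the gene's 5′ end in kb; grey boxes are the genes, dot area is the signal in its own list, and red rings mark optimal peaks. The ringed dots lie 315 bp upstream of unc-37 and 1019 bp upstream of ced-9, and the tra-1 panel has a longer axis.

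At unc-37, the corepressor gene, the optimal peak at I:6745472-6745815 had its intergenic summit 315 bp upstream of the 5′ end. Its signal was 41.3 in the pooled list, rank 450 of 30000, 14.0 in replicate 1, rank 1809 of 30000, and 31.0 in replicate 2, rank 211 of 17926. Replicate 2 therefore placed the peak much nearer the top of its list than replicate 1. The nearest replicate 2 summit was 319 bp upstream, while replicate 1 split the region into summits 193 and 394 bp upstream. No other gene had its promoter window over this summit.

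The unc-37 window held 6 more pooled summits, at signals from 10.8 to 16.5. Of these, 3 overlapped peaks of both replicates, at 2268 and 2471 bp upstream, in the neighbouring gene fnci-1, and 5164 bp downstream, in dhod-1. The pair in fnci-1 matched the same replicate peaks, ranked 2291 in replicate 1 and 3338 in replicate 2, so it counts as 1 reproducible place. A summit 1150 bp upstream, also in fnci-1, had a pooled signal of 11.2. It was the strongest of the window in replicate 1, at 14.2 and rank 1719, and no replicate 2 peak overlapped it.

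The peak next to ced-9 was the highest of all 9 genes, and its summit was nearer to other genes than to ced-9. It lies at III:10333981-10334324, with an intergenic summit 1019 bp upstream of the ced-9 5′ end. The signal was 45.1 in the pooled list, rank 353, 13.9 in replicate 1, rank 1895, and 33.2 in replicate 2, rank 161. As at unc-37, replicate 2 ranked it far higher than replicate 1. The summit was 124 bp upstream of mev-1 and 135 bp upstream of jmjd-4, which is encoded on the opposite strand. The replicate 1 summit was nearest to mev-1, 108 bp upstream of it, and the replicate 2 summit to jmjd-4, 51 bp upstream. The gene mev-1, also called cyt-1, encodes a subunit of succinate dehydrogenase. It ends 3 bp before ced-9 begins, and the pair is known to be transcribed together as an operon. That is background, not taken from the annotation used, and which of these genes the peak serves was not tested. With windows measured from the ced-9 5′ end itself, the pooled summit fell just outside the promoter window.

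Closer to ced-9, the signal was low. The promoter window held 1 pooled summit, 283 bp upstream in a mev-1 intron, with a signal of 10.3, rank 29171 of 30000, overlapped by replicate 1 and not by replicate 2. A summit in a ced-9 coding exon, 1150 bp downstream of the 5′ end, had 13.5 in the pooled list, 14.7 in replicate 2 at rank 2086, and no peak in replicate 1. The remaining summits, with signals of 12.1 to 18.9, were in or beside nex-2, ttr-15 and tbx-9, and of these the 1 in ttr-15, 3216 bp downstream, overlapped both replicates.

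**Figure D2:**
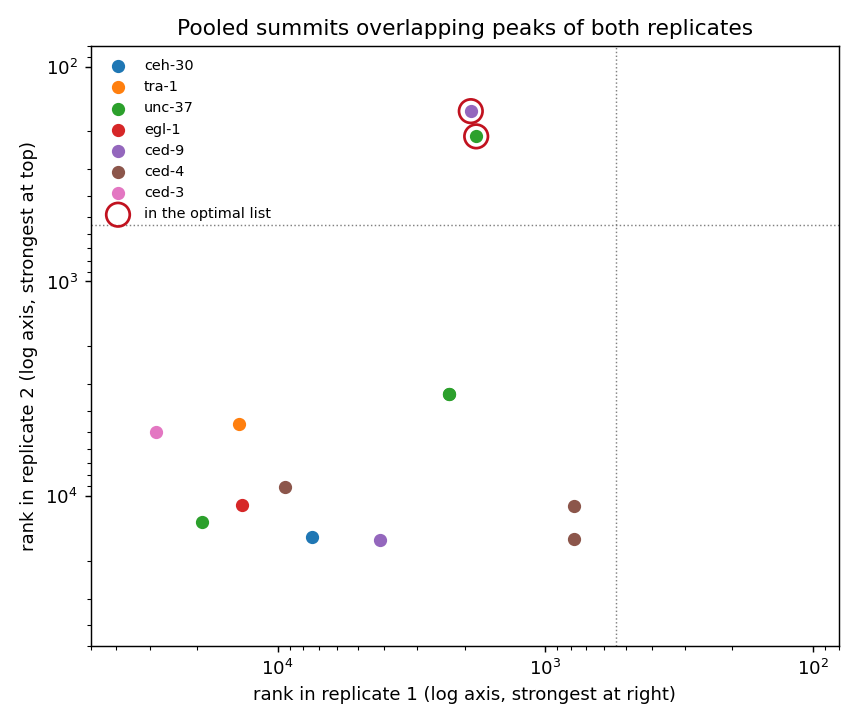
Rank in replicate 1 against rank in replicate 2 on log axes for the 13 pooled summits that overlapped peaks of both replicates; dotted lines mark rank 545 in each list and red circles the optimal peaks. Both optimal peaks are past the line in replicate 2 only, and 1 dot at unc-37 stands for 2 summits.

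Neither optimal peak was among the 545 strongest of replicate 1. Of the 545 optimal peaks, 145 were, like these, among the 545 strongest of replicate 2 and not of replicate 1. The opposite held for 122, while 237 were among the 545 strongest of both and the rest of neither. The median rank of optimal peaks was 335 in replicate 1, against which the ranks 1809 and 1895 stand far down, and 54 optimal peaks ranked beyond 1800 there. In replicate 2 the median was 312, and both peaks were above it.

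At ced-4, which encodes the caspase activator, the strongest summit was 1972 bp upstream of the 5′ end, at III:4850181-4850524. Its signal was 26.4 in the pooled list, rank 1509. In replicate 1 it was 18.1, rank 780, the highest replicate 1 rank of any summit near the 9 genes, and in replicate 2 the strongest overlapping peak had 9.23, rank 11152. The replicate 2 summit at nearly the same base, 1970 bp upstream, had 8.16, rank 15856. Here replicate 1 ranked the peak higher, the reverse of unc-37 and ced-9. The summit was 154 bp upstream of F26A1.1 and 446 bp upstream of nonu-1, so ced-4 was not its nearest gene. A pooled summit 1739 bp upstream, with a signal of 13.1, overlapped that replicate 1 peak and a weaker replicate 1 peak of its own, at 10.98 and 1764 bp upstream.

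Within ced-4, an intron held a summit of pooled signal 21.3, rank 3029, at 846 bp past the 5′ end. It was the strongest summit inside any of the 9 genes. Both replicates had it, at 9.01, rank 9383, in replicate 1 and 9.86, rank 9031, in replicate 2. Their summits were 841 and 830 bp downstream. The promoter window held 1 summit, 686 bp upstream, at 10.6 and rank 27282, with a peak in replicate 1 only.

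At ced-3, the caspase gene, the highest pooled signal was 21.2, rank 3064, at a summit 1740 bp upstream in intergenic sequence. Replicate 2 had it at 16.3, rank 1448, and replicate 1 had no overlapping peak. The promoter window held a summit 963 bp upstream at 14.4, again in replicate 2 only, at 8.92. Introns of ced-3 held 3 summits, at 1535, 2842 and 4439 bp, with signals of 16.8, 12.2 and 15.9. The first of these overlapped both replicates, although at rank 28433 in replicate 1, near the end of that list, against rank 4998 in replicate 2.

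At egl-1, which starts the death programme, the data were sparse. The window held 2 pooled summits. One lay 6031 bp downstream of the 5′ end, beyond the gene, with a signal of 13.7 in the pooled list, 7.99 in replicate 1 and 9.29 in replicate 2, and its nearest protein-coding 5′ end was that of rrsr-1, 1320 bp away. The other lay in the egl-1 3′ UTR, 965 bp downstream, at 10.8, with 9.48 in replicate 1 and no peak in replicate 2. Upstream of egl-1, replicate 1 alone listed a summit, 2953 bp away at 6.25, rank 24437.

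The tagged gene ceh-30 and its paralog ceh-31 face each other across 3096 bp on chromosome X, and their windows share 2 pooled summits. The line also carries ceh-30 in its transgene, and the lists do not separate signal of the transgene from that of the native locus. Of 4 pooled summits at ceh-30, the strongest, at 15.0 and rank 10793, lay between the genes, 4316 bp downstream of the ceh-30 5′ end and 2532 bp downstream of that of ceh-31. Replicate 2 had it at 8.44 and replicate 1 had no overlapping peak. Next came a summit in a ceh-30 coding exon, 1518 bp downstream, at 14.1, which replicate 1 had at 9.85 and replicate 2 lacked. Its peak spans X:3064920-3065263, so the GGGTGGTC word printed above lay upstream of it in the same gene and outside it.

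The promoter summit of ceh-30, 615 bp upstream with a signal of 10.8, overlapped a replicate 1 peak only, at 8.08. In replicate 2 a summit was listed at 7.98 in the ceh-30 coding sequence, 279 bp downstream, with no pooled summit of its own. The single ceh-30 summit that overlapped both replicates was 3472 bp upstream, at 11.6 in the pooled list, 9.65 in replicate 1 and 8.25 in replicate 2, and was nearest to rsef-1. No summit of any list lay in the promoter window of ceh-31.

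For the regulators of ceh-30, tra-1 held 9 pooled summits across its long window, 0.262 per kb, close to the 0.273 median of all protein-coding genes. The strongest, in an intron 6789 bp downstream of the 5′ end, had 18.6 in the pooled list, rank 5089, with 7.90 in replicate 1 and 11.9 in replicate 2. It was the only 1 of the 9 that overlapped both replicates. Upstream, the summits at 573 and 2054 bp had 16.9 and 17.9 and overlapped replicate 1 only. At 573 bp replicate 1 had 7.49. Around 2054 bp it had a peak of 8.74 at nearly the same base and a stronger one, 13.2 at rank 2289, with its summit 1850 bp upstream. Those inside the gene at 970, 14174 and 17337 bp, with signals of 11.4 to 15.9, overlapped replicate 2 only.

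The POU gene unc-86 had 2 pooled summits, 2997 and 3695 bp upstream, both in or beside C30A5.16, with signals of 16.5 and 13.4. Replicate 1 had them at 6.87 and 11.4. Replicate 2 listed no summit anywhere in the unc-86 window, the only such case among the 9 genes. In the promoter window replicate 1 listed 1 summit, 57 bp downstream of the 5′ end in a coding exon, at 5.62, rank 29834 of 30000.

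**Figure D3:**
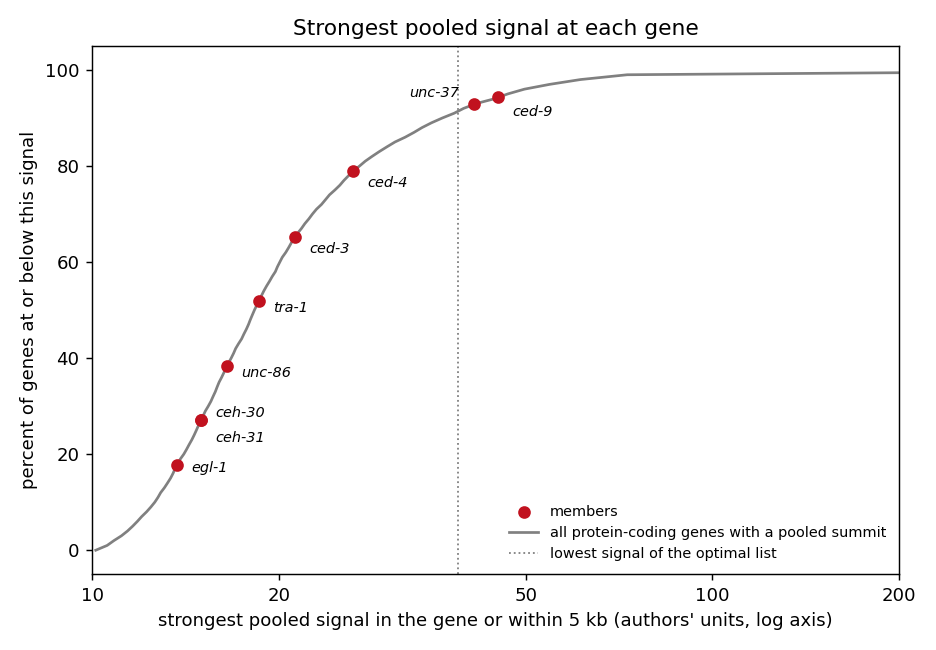
The strongest pooled signal in or within 5000 bp of each of the 9 genes (red, log axis), set on the cumulative curve of the 18741 protein-coding genes that had a pooled summit (grey). The dotted line is the lowest optimal signal, 38.9, and only unc-37 and ced-9 lie beyond it.

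Ordered by the strongest pooled signal in the window, the genes ran ced-9 (45.1), unc-37 (41.3), ced-4 (26.4), ced-3 (21.2), tra-1 (18.6), unc-86 (16.5), ceh-30 and ceh-31 (15.0, shared) and egl-1 (13.7). A signal carries no error in these lists, and the strongest summits of the replicate lists did not share this order. They were often at other places than the pooled summit, so they do not measure the spread of a single peak. At unc-37 the replicate 1 value was 1153 bp upstream, in fnci-1. For replicate 2, the ced-4 value was 4749 bp downstream, in C35D10.7, and the ceh-30 value 4219 bp upstream, in rsef-1. In replicate 1 the order was led by ced-4 at 18.1, with unc-37 at 14.2 and ced-9 at 13.9 next, and ended with egl-1 at 9.48. In replicate 2 ced-9 at 33.2 and unc-37 at 31.0 stood apart from ced-3 at 16.3, tra-1 at 13.1, ced-4 at 12.4, ceh-30 at 11.0, ceh-31 at 10.2 and egl-1 at 9.29. The median of the 9 pooled values was 18.6, against 18.3 over the genes with a summit. Of all protein-coding genes, counting those with no listed summit as lower, 94.7% had a lower value than ced-9, 93.2% than unc-37, 80.2% than ced-4, 31.5% than ceh-30 and 22.9% than egl-1.

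The counts over relaxed summits stand beside those of all protein-coding genes. Each of the 9 genes had a pooled summit in its window, as did 93.8% of protein-coding genes. Replicate 1 gave 9 of 9 against 94.2% and replicate 2 gave 8 of 9 against 85.8%. A pooled summit that overlapped peaks of both replicates was present at 7 of 9, all but ceh-31 and unc-86, against 53.6%. In promoter windows the counts were 6 of 9 against 45.0% for the pooled list, 6 of 9 against 45.3% for replicate 1, 3 of 9 against 31.2% for replicate 2, and 1 of 9 against 16.3% for pooled summits overlapping both. With 9 genes, a single gene moves each share by 11.1 percentage points, and no test was made.

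The windows together held 42 distinct pooled summits in 130 kb, 0.323 per kb against 0.299 over the genome. The median pooled signal was 14.0, against 13.5 in the whole list. Peaks of both replicates overlapped 13 of the 42, 31.0% against 24.3% of all pooled summits, while 15 were overlapped by replicate 1 only, 11 by replicate 2 only and 3 by neither. Of all pooled summits, 16.7% were overlapped by neither. By position, 18 were in introns, 14 in intergenic sequence, 7 in coding exons and 3 in 3′ UTRs, neighbouring genes included, and 13 lay inside 1 of the 9 genes. For 23 the nearest protein-coding 5′ end was that of 1 of the 9. No tRNA, snoRNA, snRNA or microRNA gene lay within 500 bp of any of the 42. These position counts have no share over the whole pooled list beside them, so they only describe the 42.

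Base composition was measured around each pooled summit. The windows within 50 bp of the summit had 57.4% G and C next to ced-9 and 55.4% at unc-37, above the optimal list's median of 48.5%. The median of the 42 was 36.6%, against 35.6% for all pooled summits. Of the 42, 4 were above 50%, and the remaining pair lay in tra-1 introns, outside the optimal list. The tra-1 summit 6789 bp downstream, with a pooled signal of 18.6, had 53.5%, and the one 970 bp downstream, with a signal of 11.4, had 55.4%, the same as the unc-37 summit. Base composition can itself affect sequencing coverage, and its part in these signals was not tested.

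**Figure D4:**
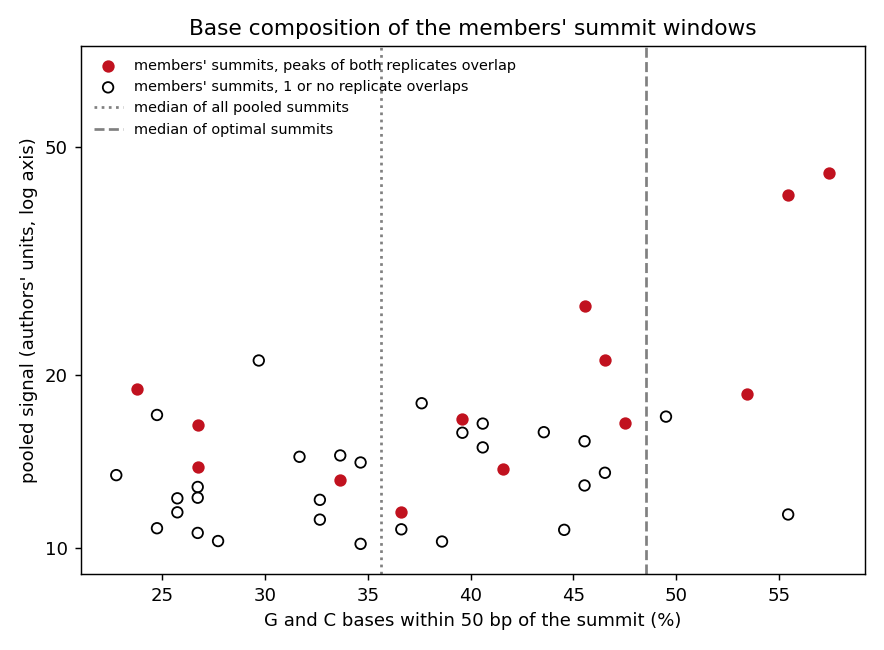
Percent G and C within 50 bp of each of the 42 pooled summits against pooled signal (log axis), filled red where peaks of both replicates overlapped. Dotted and dashed lines are the medians of all pooled (35.6%) and optimal (48.5%) summits, and the 2 strongest dots, ced-9 and unc-37, lie to the right of both.

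Homeodomain words were found at 10 of the 42 summits, counting the longer forms of TAAT and the word TAAACG in either orientation, 23.8% against 14.6% of all pooled and 7.89% of optimal summit windows. TAATTG was at 4, TAATTA at 3 and TAAACG at 3. The shorter TAAT, which overlaps the first and second of these, was at 31, 73.8% against 61.2% of pooled windows. Neither optimal summit, at unc-37 or next to ced-9, held a TAAT in the pooled list. The replicates placed these summits differently. Next to ced-9 the replicate 2 summit, 84 bp from the pooled one, held TAATTA and had 27.7% G and C, while the replicate 1 summit, 16 bp from it, held GACGCA and GCGCCA but no TAAT and had 53.5%. At unc-37 the replicate 2 summit, 4 bp from the pooled one, held none of the words and had 55.4%. The stronger replicate 1 summit there held TAATTG and the weaker one held no word, both with 40.6%. GACGCA was at 1 of the 42, the ced-9 summit, and GCGCCA at 2, the ced-9 summit and the tra-1 summit 573 bp upstream. These words were at 18.7% and 14.1% of optimal windows and at 3.60% and 2.60% of all pooled windows. The POU octamer ATGCAAAT was at none of the 42 and at 0.797% of all pooled windows. A match describes the letters under a peak and does not show which protein was bound.

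Other genes of cell death and sex determination gave a wider view. Of 21 further cell death genes, 0 had an optimal summit in the promoter window, and 3 had one in or within 5000 bp, 14.3% against 8.07% of protein-coding genes. Those were the engulfment genes ced-2 (signal 53.3, 1304 bp upstream) and ced-6 (40.1, 6476 bp downstream), and psr-1 (42.6, 7230 bp downstream), a phosphatidylserine receptor gene. In each case another gene was nearer, npp-8, madf-11 and F29B9.11. A pooled summit overlapping both replicates stood in the promoter window of 7 of the 21, 33.3% against 16.3%, led by wah-1 (30.9, 85 bp upstream), which encodes the apoptosis-inducing factor, crn-1 (26.9), drp-1 (25.6) and ced-10 (21.2). The drp-1 summit was 519 bp upstream of that gene and 7 bp upstream of fem-1. In replicate 1 the crn-1 and ced-10 summits ranked only 12622 and 22875, against 2841 and 2737 in replicate 2.

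Of 18 further sex determination genes, 1 had an optimal summit within 5000 bp, 5.56% against 8.07%. It was xol-1, the X-chromosome counting switch that directs male development. The summit lay 4907 bp upstream, with signal 55.8, rank 142 in replicate 1 and 143 in replicate 2. Its nearest protein-coding 5′ end was that of xol-1. In promoter windows, 4 of the 18 had a summit overlapping both replicates, 22.2% against 16.3%. These were fem-2 (28.3, 111 bp upstream), fem-1 (25.6, 7 bp upstream), fem-3 (20.5, 108 bp downstream) and tra-3 (14.9, 488 bp upstream). The fem genes act upstream of tra-1 to promote male fates. The fem-3 and tra-3 summits were low in both replicates, at ranks 24881 and 24952 of 30000 in replicate 1. In replicate 2 they ranked 12891 and 13222 of 17926.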

How the data were processed

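Peak lists on the ce11 assembly from 2 biological replicates of 1 group were used. Per the deposited file descriptions, the authors called relaxed peaks and background for each replicate and for both pooled, against a control alignment, and made the optimal list by IDR. Peak caller, aligner and IDR threshold: not given in the sources used here. Each deposited value is the authors' height of a peak, used to describe and rank peaks within a list. The authors' ce10 lists were not used.

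Summits (peak start plus summit offset) were set against Ensembl release 115 genes of WBcel235, the assembly of ce11, with Python 3.11.15, numpy 2.4.6 and pandas 2.3.3. A gene's 5′ end is the outermost annotated one. Replicate support means an overlap of 1 bp or more, and the strongest such peak gives the value. Window counts, matching and word search were checked on simulated data. The members and lists were chosen with earlier results of these data known. Named summits were each gene's optimal summits, its 3 strongest pooled ones and those in its promoter window, plus further ones chosen after values were seen. Alternatives were other windows, a stricter list, other overlap rules and single replicates. No group was compared with another, so no p-value is given.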

Additional observations from a re-analysis of the deposited data

How the results depend on the processing

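The 2 genes with an optimal summit were the same count at 2000 and 10000 bp. The 42 pooled summits became 66 at 10000 bp and 24 among the 15000 strongest pooled peaks, and single replicates gave 32 to 38. The 13 summits overlapping both replicates became 8 at 2000 bp and 6 when replicate summits had to lie within 100 bp, and the 7 genes holding one became 4 (unc-37, ced-9, ced-4 and ced-3). The 6 genes with a pooled promoter summit became 3 among the 15000 strongest peaks and 2 in a window of 500 bp upstream to 0 bp downstream, with 3 to 6 from single replicates, 3 being replicate 2 alone. The 10 summits with a homeodomain word became 5 within 25 bp. In 22 other cases these counts stayed within 1.5 times. Apart from single replicates, the shares of all protein-coding genes were given for the main settings only, as were the word shares. A narrower window or shorter list can lower the count of any gene set. Whether the counts here fell more or less than those of all protein-coding genes or all summits was therefore not tested. The shorter TRA-1 word was chosen after seeing the data. No paired analysis was possible because both replicates form 1 group. Without read counts, depth sets no stated limit on what could be listed.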

Other observations

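A list of 10 genes known for their use in the male CEM neurons themselves (lov-1, pkd-2, klp-6, cil-7, cwp-1 to cwp-5 and trf-1) was also counted. An optimal summit lay within 5000 bp of 0 of the 10, against 8.07% of protein-coding genes, and a pooled summit overlapping both replicates lay within 5000 bp of 7, against 53.6%. The median of their strongest pooled signals was 16.2, against 18.3 over protein-coding genes with a summit. In the promoter window, a pooled summit overlapping both replicates stood at 1 of the 10, against 16.3% of protein-coding genes. It was at cwp-4, a gene coexpressed with the polycystins, with a signal of 18.95 at 760 bp upstream, where K11D12.12 was nearer.

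Between 5000 and 10000 bp from the 9 genes, the pooled signals peaked at 19.5 near ced-4, 6245 bp upstream, and at 19.4 near egl-1, 7426 bp downstream. The egl-1 one was 75 bp from the 5′ end of rrsr-1 and exceeded each summit closer to egl-1.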
